A study of Mus musculus with 12 samples.

Results

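Socs3 and the ligands and receptors of the LIF, oncostatin M and CNTF branch of cytokine signalling were followed in mouse brain after photodynamic therapy (PDT). The 9 genes (Socs3, Stat3, Lif, Osm, Osmr, Lifr, Clcf1, Cntf and Cntfr) were taken by symbol from a table of 54532 genes, and each symbol had 1 row there. The study measured RNA from brain tissue in 12 libraries, 3 from each of 4 groups. Mice were given 5-aminolevulinic acid (5-ALA), a heme precursor that cells turn into a light-activated pigment, at 20 mg/kg. After 30 min of circulation they were irradiated with a 635 nm laser at 20 J per square centimetre, and brains were taken 1.5 h, 12 h or 48 h later, after perfusion with 0.9% NaCl. The control libraries carry the name PBS in their titles and the word untreated in their treatment label, and whether these mice had an injection or light is not given. Both BALB/c and C57BL/6 appear in the labels of every library, so the strain is uncertain. Age, brain region and the animal behind each library are not given, so p-values measure the spread between libraries, which may be technical.

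LIF, oncostatin M, CNTF and CLCF1 are cytokines of the interleukin-6 family, whose receptor complexes all contain gp130, the product of Il6st. LIF binds the LIF receptor (Lifr) with gp130. In mice oncostatin M acts mainly through its own receptor subunit (Osmr) with gp130. CNTF and CLCF1 first bind the CNTF receptor alpha subunit (Cntfr), which then engages LIFR and gp130. The activated complexes switch on JAK kinases, which phosphorylate STAT3. STAT3 enters the nucleus and drives target genes that include Socs3, and the SOCS3 protein binds gp130 and JAKs and shuts the signal down. In the brain this family is known for its induction after injury and for its part in astrocyte reactivity.

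Across the 9 genes, Socs3, Stat3, Lif, Osmr and Clcf1 were higher at both 12 h and 48 h after PDT than in untreated brain, and Osm was higher at 12 h. Cntfr, the most abundant of the 9 in untreated brain per unit of gene length, was lower at 48 h. Lifr did not pass the test against control at any time, and Cntf was too low to be tested. No gene of the 9 passed the test at 1.5 h. Of 5 endothelial markers, 3 rose at 12 h (Cdh5 5.68-fold, Pecam1 4.48-fold and Cldn5 1.93-fold of the control mean) and 1 at 48 h (Cldn5, 2.74-fold), and 0 fell. Of all tested genes, 13.3% rose at 12 h and 7.50% at 48 h. In every 12 h library Flt1 (1.56-fold) lay above and Tek (0.428-fold) below all controls, and neither passed. The summed level of the 5 was 47.0 to 60.3 FPKM (fragments scaled to gene length and library size) at 12 h and 45.3 to 70.3 FPKM at 48 h, against 21.6 to 24.6 FPKM in controls. Cldn5 alone made up 34.1 to 45.3 FPKM at 48 h. The part of endothelial cells in the rises was not tested. In bulk tissue, a change in the number of cells of a type and a change in RNA per cell cannot be told apart.

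The genes lie on 4 chromosomes, given here on build GRCm38, and all 9 are protein coding. Socs3 (ENSMUSG00000053113) spans chr11:117966079-117970047 on the minus strand, and Stat3 (ENSMUSG00000004040) spans chr11:100885098-100939540 on the minus strand. Lif (ENSMUSG00000034394, chr11:4257557-4272514) and Osm (ENSMUSG00000058755, chr11:4236420-4241026) are neighbours on the plus strand, 16.5 kb apart with no coding gene between them. Osmr (ENSMUSG00000022146, chr15:6813577-6874969, minus strand) and Lifr (ENSMUSG00000054263, chr15:7090614-7197489, plus strand) are neighbours too, 215.6 kb apart with no coding gene between. Clcf1 (ENSMUSG00000040663) spans chr19:4214238-4223490 on the plus strand, and Cntfr (ENSMUSG00000028444) spans chr4:41657498-41697089 on the minus strand. Cntf (ENSMUSG00000079415, chr19:12763660-12765632, minus strand) lies wholly inside the annotated span of Zfp91 on the same strand, so its few reads cannot be assigned to it with certainty. Stat3 meets the end of Stat5a on the other strand, and Clcf1 overlaps AC109138.7 on its own strand and the miRNA gene Gm26115 on the other. Strandedness of the counting is not given in the sources used here, so reads in these overlaps are also uncertain.

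The 250 bases before a RefSeq transcription start on GRCm38.p6 were available for 7 of the 9 genes, in 13 windows, with none for Osm and Clcf1. Each window was searched on both strands for the STAT site TTCNNNGAA and for the AP-1 site TGANTCA, where AP-1 is the FOS and JUN dimer. The windows of Socs3 and Lif are shown because these genes rose together and each holds 1 of the sites, in capitals below, reading 5′ to 3′ on the strand of the gene. The Socs3 window covers chr11:117969367-117969616 and lies inside the longer gene span given above, and the Lif window covers chr11:4257318-4257567.
Socs3: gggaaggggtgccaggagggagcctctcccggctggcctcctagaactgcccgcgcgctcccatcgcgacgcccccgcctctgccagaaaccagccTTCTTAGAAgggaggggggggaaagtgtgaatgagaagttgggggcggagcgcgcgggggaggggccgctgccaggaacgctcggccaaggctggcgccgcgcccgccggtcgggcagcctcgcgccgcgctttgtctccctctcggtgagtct
Lif: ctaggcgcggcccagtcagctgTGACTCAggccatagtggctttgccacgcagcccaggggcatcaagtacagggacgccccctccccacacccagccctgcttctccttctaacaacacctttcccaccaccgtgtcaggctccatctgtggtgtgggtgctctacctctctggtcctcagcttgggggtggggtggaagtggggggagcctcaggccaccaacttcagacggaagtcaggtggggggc
In Socs3 the STAT site TTCTTAGAA stands 154 bases before the start, at chr11:117969512-117969520. In Lif the AP-1 site TGACTCA stands 228 bases before the start, at chr11:4257340-4257346. Cntf also has TGACTCA, 245 bases before its start. The windows of Stat3, Osmr, Lifr and Cntfr held neither run of letters. Among 32851 such windows of 27025 genes, 7.02% (2306) held TTCNNNGAA and 6.75% (2217) held TGANTCA, so either match is a description of the letters and not of binding.

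Library size ran from 15348579 to 17444654 reads recovered for genes. Defining markers of neurons and oligodendrocytes were abundant in all 12 libraries, with summed FPKM of 659 to 1160 for 7 neuron genes and 475 to 1510 for 5 oligodendrocyte genes. FPKM values are as made by the authors. Replicates 1 and 3 of the 1.5 h group stood apart from the other libraries. Their log2 difference from the control mean had slopes on log2 gene length of -0.136 and -0.0921, where the other 10 libraries had -0.0412 to 0.00902. Mitochondrial genes took 12.4% and 9.14% of their reads, against 4.16% in 1.5 h replicate 2 and 4.16% to 6.02% in controls. One 12 h column has a number that no sample title of its group carries, and it is called the unnumbered 12 h library.

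Genes were tested with limma on log2(FPKM + 1), where a positive change means higher in the group named first, and rose or fell means a false discovery rate (FDR) under 0.05 over 17664 tested genes. Of the 9 genes, 8 were tested. Lif, Osm, Osmr and Clcf1 never exceeded the filter of 0.5 FPKM in a control library and were tested only because of their levels after PDT, so counts among the 8 carry no support of their own. At 1.5 h against control 0 of the 8 rose and 0 fell, and 0 had an unadjusted p under 0.05, where 0.419% of all tested genes rose and 0.136% fell. At 12 h against control 6 rose and 0 fell, beside 13.3% and 7.90% of all tested genes. At 48 h against control 5 rose and 1 fell, beside 7.50% and 5.01% of all tested genes. The median log2 change of the 8 was 0.07, 1.52 and 1.28 at 1.5 h, 12 h and 48 h, against 0.02, 0.00 and -0.00 for all tested genes.

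**Figure D1:**
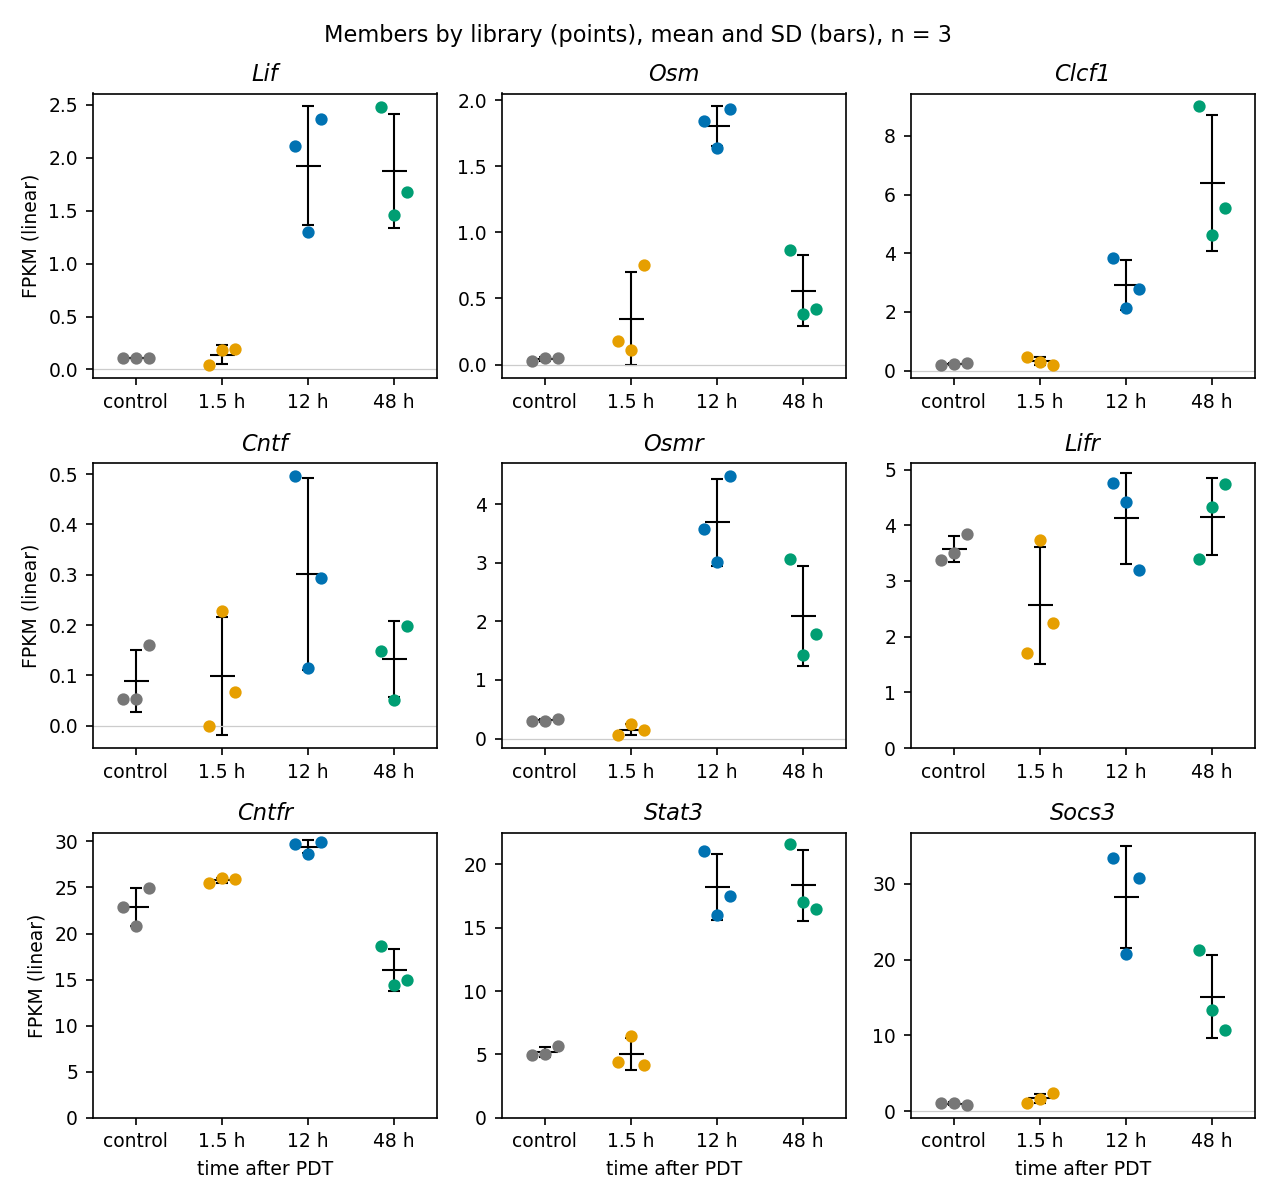
FPKM of the 9 genes (linear vertical axes, each gene on its own scale) in the control, 1.5 h, 12 h and 48 h groups, with 1 point per library and bars for the mean and SD of 3 libraries. The 12 h points of Socs3 lie at 20.7 to 33.4 FPKM, above the control points at 0.831 to 1.12 FPKM, while the Lifr points of all groups overlap.

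Among the ligands, Lif was close to the limit of detection in untreated brain. Its level was 0.106, 0.104 and 0.105 FPKM in control replicates 1, 2 and 4, and 0.0379, 0.183 and 0.197 FPKM in 1.5 h replicates 1, 2 and 3. At 12 h it was 2.11 and 1.30 FPKM in replicates 1 and 2 and 2.37 FPKM in the unnumbered library, and at 48 h it was 2.48, 1.46 and 1.68 FPKM in replicates 1, 3 and 4. The control libraries held 8 reads each, while the 12 h libraries held 91 to 164 and the 48 h libraries 116 to 202. Every 12 h and 48 h library lay above every control and 1.5 h library, and the 12 h and 48 h libraries overlapped. Mean FPKM was 18.3-fold that of controls at 12 h, a log2 change of 1.38 ± 0.17 (SE) on the log2(FPKM + 1) scale with adjusted p = 0.00023. At 48 h it was 17.8-fold that of controls (log2 change 1.36, adjusted p = 0.00039). The log2 scale with a pseudocount of 1 understates the change of low genes, and this holds for Osm, Osmr and Clcf1 as well.

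Osm, which activated leukocytes and microglia are known to secrete, had its highest level at 12 h. Control replicates 1, 2 and 4 had 0.0254, 0.0499 and 0.0503 FPKM, which is 1, 2 and 2 reads. The 1.5 h replicates 1, 2 and 3 had 0.181, 0.108 and 0.755 FPKM (5, 4 and 24 reads). The 12 h libraries had 1.84, 1.64 and 1.93 FPKM in replicate 1, replicate 2 and the unnumbered library, and 48 h replicates 1, 3 and 4 had 0.869, 0.385 and 0.422 FPKM. All libraries after PDT exceeded the 3 controls, and the 12 h libraries lay above all others. Osm rose at 12 h (log2 change 1.43 ± 0.18, adjusted p = 0.00027). It did not pass at 1.5 h (0.34, 95% interval -0.05 to 0.73, adjusted p = 0.2) or at 48 h (0.57, interval 0.18 to 0.95, adjusted p = 0.059). With the counts behind the FPKM values and limma's voom weights, the 48 h change was 3.33 with adjusted p = 0.0083, and it passed in 6 of 21 alternative fits (adjusted p from 0.0083 to 0.33), among them those without 1.5 h replicate 2 or 3. Of 6 neutrophil markers, S100a8 and S100a9 were tested and both rose at 12 h, beside 13.3% of all tested genes. Neither exceeded the filter of 0.5 FPKM in a control library. Both were tested only because of their levels after PDT, so this count carries no support of its own. The summed level of the 6 was 5.29 to 20.9 FPKM at 12 h against 0.0832 to 0.508 FPKM in controls. At 1.5 h that sum was 18.0, 3.23 and 0.618 FPKM in replicates 1, 2 and 3, while Osm was highest in replicate 3. Of the untested markers, Retnlg (0.448, 0.522 and 0.847 FPKM), Cxcr2 (0.0872, 0.0813 and 0.309 FPKM) and Mmp8 (0.0822, 0.0511 and 0.129 FPKM) exceeded every control in each 12 h library. Ly6g, a defining neutrophil gene, was at 0 in every control, 1.5 h and 12 h library. The part of neutrophils in the Osm level was not tested.

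Clcf1, which signals through the CNTF receptor, had its highest level at 48 h. Controls had 0.202, 0.214 and 0.262 FPKM in replicates 1, 2 and 4, and 1.5 h replicates 1, 2 and 3 had 0.466, 0.297 and 0.192 FPKM. At 12 h replicates 1 and 2 and the unnumbered library had 3.85, 2.15 and 2.77 FPKM, and at 48 h replicates 1, 3 and 4 had 9.0, 4.63 and 5.55 FPKM. The control and 1.5 h libraries overlapped, the 12 h libraries lay above both, and the 48 h libraries lay above the 12 h libraries. Mean FPKM at 12 h was 12.9-fold that of controls (log2 change 1.66 ± 0.21, adjusted p = 0.00032), and at 48 h it was 28.3-fold (log2 change 2.55 ± 0.21, adjusted p = 2.5e-05). Cntf, a cytokine known from astrocytes and Schwann cells, had between 0 and 8 reads in any library. It read 0.0538, 0.0528 and 0.160 FPKM in controls, 0, 0.228 and 0.0666 FPKM at 1.5 h, 0.496, 0.115 and 0.293 FPKM at 12 h and 0.149, 0.0509 and 0.198 FPKM at 48 h. The 4 groups overlapped, and the value of 0 in 1.5 h replicate 1 allows up to 0.23 FPKM, which is 3 reads. Cntf stayed under the filter on low values and was not tested.

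Among the receptors, Osmr was the one that moved most. Its level was 0.296, 0.304 and 0.340 FPKM in control replicates 1, 2 and 4, and 0.0612, 0.253 and 0.148 FPKM in 1.5 h replicates 1, 2 and 3. It reached 3.58, 3.01 and 4.48 FPKM in 12 h replicates 1 and 2 and the unnumbered library, and 3.06, 1.43 and 1.78 FPKM in 48 h replicates 1, 3 and 4. All 1.5 h libraries lay below all controls, and all 12 h and 48 h libraries lay above them. Osmr rose at 12 h, to 11.8-fold the control mean (log2 change 1.82 ± 0.18, adjusted p = 7.2e-05), and at 48 h, to 6.67-fold (1.20 ± 0.18, adjusted p = 0.0016). The lower 1.5 h level did not pass (-0.19, interval -0.59 to 0.21, adjusted p = 0.48). The lowest 2 of the 1.5 h libraries were replicates 1 and 3, those with the steepest length trend, in a gene of 12113 bases. Replicate 2, with a slope of -0.00415, was also below every control. In a fit with the trend on gene length taken out, the 1.5 h change of Osmr was -0.03 (adjusted p = 0.93). The part of gene length in the lower level was not tested.

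Lifr, the receptor chain shared by LIF, CNTF and CLCF1, had 3.37, 3.51 and 3.84 FPKM in control replicates 1, 2 and 4. It had 1.71, 3.74 and 2.24 FPKM in 1.5 h replicates 1, 2 and 3, 4.76, 4.41 and 3.20 FPKM in 12 h replicates 1 and 2 and the unnumbered library, and 3.40, 4.33 and 4.74 FPKM in 48 h replicates 1, 3 and 4. Each PDT group overlapped the controls. The log2 changes against control were -0.40 (interval -0.84 to 0.04, adjusted p = 0.19) at 1.5 h, 0.15 (-0.29 to 0.59, adjusted p = 0.65) at 12 h and 0.17 (-0.27 to 0.61, adjusted p = 0.66) at 48 h. At 1.5 h the call depended on replicate 2: without it Lifr fell by 0.63 with adjusted p = 0.0096, over a range of 0.0096 to 0.97 in 21 alternatives, and the 2 remaining libraries are those that stood apart.

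Cntfr, the ligand-binding subunit that is known to be neuronal in the brain, was highest at 12 h and lowest at 48 h. Controls had 22.9, 20.8 and 24.9 FPKM in replicates 1, 2 and 4, and 1.5 h replicates 1, 2 and 3 had 25.5, 26.0 and 25.9 FPKM. The 12 h libraries had 29.7, 28.6 and 29.9 FPKM, and 48 h replicates 1, 3 and 4 had 18.6, 14.4 and 15 FPKM. No PDT group overlapped the controls, with 1.5 h and 12 h above and 48 h below them. Cntfr fell at 48 h to 0.699 of the control mean (log2 change -0.50 ± 0.12, adjusted p = 0.02). It did not pass at 1.5 h (0.17, interval -0.09 to 0.43, adjusted p = 0.33) or at 12 h (0.35, interval 0.09 to 0.62, adjusted p = 0.056), although the 12 h change passed in 6 of 21 alternatives, among them those without 1.5 h replicate 1 or 2 or 48 h replicate 1 (adjusted p over all 21 from 0.011 to 0.3). The 48 h call held in 16 of 21 alternatives (adjusted p from 0.0079 to 0.18) and was lost without control replicate 1 (-0.49) or 4 (-0.43) and without 48 h replicate 3 (-0.43) or 4 (-0.46). The summed FPKM of 7 neuron markers was 659, 980 and 891 in 48 h replicates 1, 3 and 4, against 918 to 1040 in controls. None of these 7 genes passed at 48 h. Syt1 (0.572 of the control mean, adjusted p = 0.056), Rbfox3 (0.691, adjusted p = 0.18) and Map2 (0.862, adjusted p = 0.65) lay below every control in all 48 h libraries. Snap25 (0.782), Tubb3 (0.868), Gad1 (0.96) and Slc17a7 (1.11) overlapped the controls. The part of neurons in the Cntfr level was not tested.

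Stat3, the transcription factor that these receptors activate, had 4.98, 5.00 and 5.65 FPKM in control replicates 1, 2 and 4 and 4.44, 6.49 and 4.19 FPKM in 1.5 h replicates 1, 2 and 3. It had 21.1, 16.0 and 17.5 FPKM in 12 h replicates 1 and 2 and the unnumbered library, and 21.6, 17.0 and 16.5 FPKM in 48 h replicates 1, 3 and 4. The 1.5 h libraries overlapped the controls, and every 12 h and 48 h library was above every control. Mean FPKM was 3.49-fold that of controls at 12 h (log2 change 1.62 ± 0.17, adjusted p = 8e-05) and 3.53-fold at 48 h (1.63 ± 0.17, adjusted p = 0.00011). At 1.5 h the change was -0.06 (interval -0.42 to 0.31, adjusted p = 0.83).

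Socs3, the feedback inhibitor, was among the genes that rose at both 12 h and 48 h. Controls had 1.12, 1.08 and 0.831 FPKM in replicates 1, 2 and 4, and 1.5 h replicates 1, 2 and 3 had 1.14, 1.55 and 2.37 FPKM. The 12 h libraries had 33.4, 20.7 and 30.8 FPKM in replicate 1, replicate 2 and the unnumbered library, and 48 h replicates 1, 3 and 4 had 21.3, 13.4 and 10.7 FPKM. The 3 libraries at 1.5 h all lay above the 3 controls, the lowest of them narrowly, and the 12 h and 48 h libraries lay far above both. At 12 h mean FPKM was 28.1-fold that of controls (log2 change 3.84 ± 0.25, adjusted p = 5.8e-06), and at 48 h it was 15-fold (2.95 ± 0.25, adjusted p = 3.3e-05). The 1.5 h change of 0.40 (interval -0.16 to 0.95, adjusted p = 0.29) did not pass. On the log2(FPKM + 1) scale Socs3 had the largest change of the 8 tested genes at both later times, but not with limma's voom on the recovered reads, where Osm at 12 h (5.09) and Clcf1 (4.73) and Lif (4.03) at 48 h exceeded Socs3 (4.78 at 12 h and 3.84 at 48 h). Per unit of gene length, Socs3 stood at 0.225, 0.216 and 0.147 of the Stat3 level in control replicates 1, 2 and 4, and at 0.256, 0.238 and 0.566 of it in 1.5 h replicates 1, 2 and 3. In the 12 h libraries the ratio was 1.58, 1.30 and 1.76, and in 48 h replicates 1, 3 and 4 it was 0.982, 0.790 and 0.649. Socs3 transcript therefore exceeded Stat3 transcript per length in each 12 h library and in no other library.

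**Figure D2:**
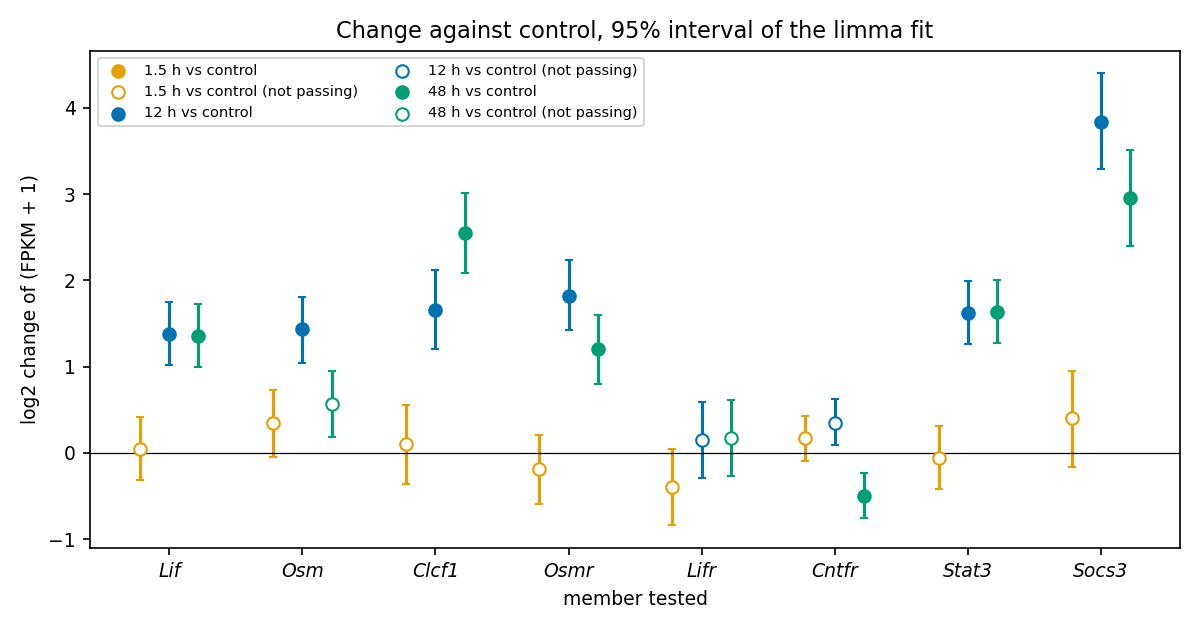
Log2 change of (FPKM + 1) against control at 1.5 h, 12 h and 48 h for the 8 tested genes, with bars for the 95% interval of the limma fit (3 libraries per group) and filled points for FDR under 0.05. All 1.5 h points are open, the highest points on this scale are those of Socs3 (3.84 at 12 h and 2.95 at 48 h), and the only filled point below 0 is Cntfr at 48 h (-0.50).

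The order of the 9 genes by FPKM shifted with time. In controls Cntfr (22.9 ± 2.09 FPKM, mean ± SD, n = 3), Stat3 (5.21 ± 0.386), Lifr (3.57 ± 0.241) and Socs3 (1.01 ± 0.156) led, with no overlap between neighbours. Osmr (0.313 ± 0.0235) and Clcf1 (0.226 ± 0.0316) followed, also without overlap, while Lif (0.105 ± 0.00102) lay within the range of Cntf (0.0888 ± 0.0615), and Osm (0.0419 ± 0.0143) came last. At 12 h Socs3 (28.3 ± 6.70 FPKM) spanned the level of Cntfr (29.4 ± 0.687) and touched the range of Stat3 (18.2 ± 2.61). Lifr (4.13 ± 0.820), Osmr (3.69 ± 0.745), Clcf1 (2.92 ± 0.858), Lif (1.92 ± 0.559) and Osm (1.80 ± 0.153) came next, each overlapping its neighbour, and Cntf (0.301 ± 0.190) was last. At 48 h Stat3 (18.4 ± 2.83 FPKM), Cntfr (16.0 ± 2.27) and Socs3 (15.1 ± 5.48) overlapped, and Clcf1 (6.39 ± 2.30) overlapped Lifr (4.16 ± 0.687). Below them, Osmr (2.09 ± 0.862) and Lif (1.87 ± 0.538) overlapped each other. Osm (0.559 ± 0.270) and Cntf (0.133 ± 0.0751) were the lowest, without overlap. At 1.5 h Cntfr (25.8 ± 0.309 FPKM), Stat3 (5.04 ± 1.26), Lifr (2.56 ± 1.06) and Socs3 (1.69 ± 0.629) led in the order of controls, with Lifr and Socs3 overlapping. Osm (0.348 ± 0.354) came next, through replicate 3, and its libraries overlapped those of Clcf1 (0.318 ± 0.138), Osmr (0.154 ± 0.0960), Lif (0.139 ± 0.0882) and Cntf (0.0983 ± 0.117).

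The times were also compared with each other. At 12 h against 1.5 h, 6 of the 8 tested genes rose and 0 fell, beside 16.9% and 16.3% of all tested genes. Those 6 were Socs3 (log2 change 3.45, adjusted p = 2.6e-05), Osmr (2.01, 7.4e-05), Stat3 (1.68, 0.00012), Clcf1 (1.56, 0.00058), Lif (1.34, 0.00036) and Osm (1.09, 0.0015), and in each the 12 h libraries lay wholly above the 1.5 h libraries. At 48 h against 1.5 h, 5 rose and 1 fell, beside 8.91% and 8.87% of all tested genes. Socs3 (2.56, adjusted p = 9.6e-05), Clcf1 (2.45, 3.8e-05), Stat3 (1.69, 9.2e-05), Osmr (1.39, 0.00065) and Lif (1.32, 0.00047) rose, and Cntfr fell by 0.67 (adjusted p = 0.0039). Lifr passed in neither comparison. Without 1.5 h replicate 2 it passed in both (0.78 at 12 h and 0.79 at 48 h against 1.5 h), and at 12 h it also passed without the unnumbered library (0.69), with voom on the recovered reads (0.72) and with a filter of 1 FPKM (0.55). The Cntfr call held in 18 of 21 alternatives (changes from -0.77 to -0.42, adjusted p from 0.0017 to 0.08). Osm did not pass between these times (0.23, interval -0.16 to 0.61, adjusted p = 0.39). These comparisons share libraries with those against control and do not stand as further evidence.

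Between 48 h and 12 h the genes parted. Clcf1 rose further, and Socs3, Osm, Osmr and Cntfr fell, while Stat3, Lif and Lifr did not pass. In all 1 rose and 4 fell, beside 5.88% and 9.73% of all tested genes. Clcf1 had 6.39 ± 2.30 FPKM at 48 h and 2.92 ± 0.858 FPKM at 12 h (log2 change 0.89 ± 0.21, adjusted p = 0.015), and its groups did not overlap. Osm had 0.559 ± 0.270 FPKM at 48 h and 1.80 ± 0.153 FPKM at 12 h (-0.86 ± 0.18, adjusted p = 0.0075), and Cntfr had 16.0 ± 2.27 FPKM at 48 h and 29.4 ± 0.687 FPKM at 12 h (-0.85 ± 0.12, adjusted p = 0.00093), also without overlap. For Socs3 (-0.89 ± 0.25, adjusted p = 0.036) and Osmr (-0.63 ± 0.18, adjusted p = 0.04) the groups overlapped through 48 h replicate 1. These calls were less stable: Socs3 held in 10 and Osmr in 9 of 21 alternatives, with adjusted p from 0.01 to 0.3 for Socs3 and from 0.005 to 0.49 for Osmr. Both were lost without any 1 control library, without 12 h replicate 1, without the unnumbered 12 h library and without 48 h replicate 3 or 4, with changes of -0.89 to -0.68 for Socs3 and -0.64 to -0.47 for Osmr. The Osmr call was also lost without 1.5 h replicate 3 (-0.63), and the Clcf1 call without 12 h replicate 2 (0.75). The Osm call held in 19 of 21 alternatives (adjusted p from 0.0017 to 0.13) and was lost with a pseudocount of 0.1. The intervals of Stat3 (0.01, -0.35 to 0.38), Lif (-0.02, -0.39 to 0.34) and Lifr (0.01, -0.43 to 0.45) were centred near 0.

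Replicate 1 was the highest of the 48 h libraries in 7 of the 9 genes (Socs3, Stat3, Lif, Osm, Osmr, Clcf1 and Cntfr). In the same library the summed level of 5 monocyte markers was 31.0 FPKM, against 6.04 and 10.9 FPKM in replicates 3 and 4, but Fn1 alone made up 30.2, 5.38 and 8.99 FPKM of these sums. The other 4 were too low to be tested. Of these, Ccr2 (0.197 FPKM, against 0.0889 and 0.0158 FPKM) and F10 (0.0977 FPKM, against 0.02 and 0 FPKM) were also highest in replicate 1. Plac8 was lowest in replicate 1 (0.101 FPKM, against 0.309 and 0.468 FPKM). Ly6c2 was highest in replicate 4 (1.46 FPKM, against 0.409 FPKM in replicate 1), so the markers did not all move together. In replicate 1 the 5 oligodendrocyte markers summed to 1130 FPKM, against 475 and 484, and its 7 neuron markers to 659 FPKM, against 980 and 891. Whether these cells account for its higher values was not tested. Without 48 h replicate 1, all 48 h rises against control kept their call.

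**Figure D3:**
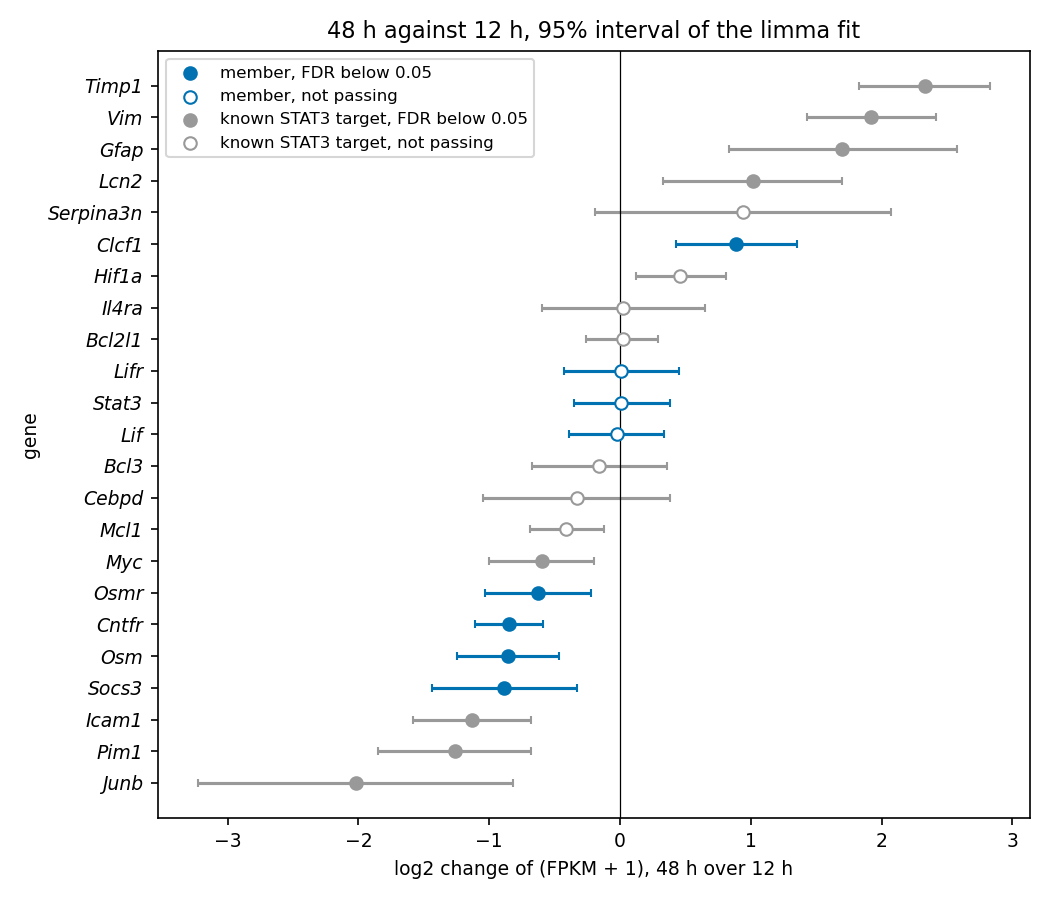
Log2 change of (FPKM + 1) at 48 h over 12 h for the 8 tested genes of the branch (blue) and 15 known STAT3 targets (grey), with bars for the 95% interval of the limma fit and filled points for FDR under 0.05. Clcf1 (0.89) lies right of 0 together with Timp1 (2.33), Vim (1.92) and Gfap (1.70), and Socs3 (-0.89) lies left of it together with Junb (-2.02), Pim1 (-1.26) and Icam1 (-1.13).

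The shared receptor chain and kinases were counted against the same background. Of Il6st, Jak1, Jak2 and Tyk2, none passed at 1.5 h or 48 h and 1 rose at 12 h, beside 13.3% of all tested genes, so nothing is read from this count. Their medians were -0.20, 0.15 and -0.08 at 1.5 h, 12 h and 48 h. Jak2, a kinase bound to gp130, had 18.3, 19.9 and 17.8 FPKM in the 12 h libraries, against 9.38, 9.95 and 11.0 FPKM in controls (log2 change 0.82, adjusted p = 0.0075), with no overlap. Il6st, which encodes gp130, had 2.89, 7.16 and 3.59 FPKM in 1.5 h replicates 1, 2 and 3, against 7.35, 7.85 and 8.10 FPKM in controls. Its change at 1.5 h was -0.74 with adjusted p = 0.1, and the lowest libraries were again replicates 1 and 3. At 12 h (0.29, adjusted p = 0.47) and 48 h (0.16, adjusted p = 0.74) it did not pass. Jak1 changed by -0.21, 0.02 and 0.00 at the 3 times (adjusted p = 0.35, 0.95 and 0.99).

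Other cytokines of the family were mostly too low to measure in untreated brain. Of 7 listed, 5 were tested, and 3 of these exceeded the filter in no control. At 1.5 h 0 passed, at 12 h 2 rose and at 48 h 2 rose, with medians of 0.13, 1.05 and 0.38. Of all tested genes, 13.3% rose at 12 h and 7.50% at 48 h. Il6, which signals through its own receptor and gp130, had 0 reads in every control and 1.5 h library. It had 1.48, 2.32 and 2.59 FPKM at 12 h (54, 91 and 100 reads) and 0.440, 0.0900 and 0.110 FPKM in 48 h replicates 1, 3 and 4. The 12 h mean was at least 30.1-fold higher than a floor of 3 reads per control library, with adjusted p = 4.9e-05, and Il6 was lower at 48 h than at 12 h (log2 change -1.36, adjusted p = 0.00024). Il11, another gp130 ligand, rose at 12 h (4.84 ± 1.12 FPKM against 0.246 ± 0.0849 FPKM in controls, log2 change 2.21, adjusted p = 0.0043). At 48 h it had 8.68, 2.36 and 0.926 FPKM in replicates 1, 3 and 4, all above controls (1.67, adjusted p = 0.027). Il6 exceeded the filter only at 12 h, and Il11 only at 12 h and 48 h. Both were tested only because of their levels after PDT, so the counts of this list carry no support of their own.

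Of 4 other receptors of the family 2 were tested, Il6ra and Il11ra1. Il11ra1 did not pass at 1.5 h, 12 h or 48 h (adjusted p = 0.078, 0.062 and 0.15). Il6ra, the interleukin-6 receptor, rose at both later times, where 13.3% (12 h) and 7.50% (48 h) of all tested genes rose. Its libraries had 1.18, 1.57 and 1.39 FPKM at 12 h and 1.28, 1.35 and 1.32 FPKM at 48 h, against 0.521, 0.498 and 0.761 FPKM in controls, with no overlap. The log2 changes were 0.58 at 12 h (adjusted p = 0.0037) and 0.54 at 48 h (adjusted p = 0.0082).

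Other inhibitors of the pathway were counted too. Of 7 other SOCS family genes 0 passed at 1.5 h and at 48 h, with medians of -0.40, 0.11 and 0.10 at 1.5 h, 12 h and 48 h. At 12 h 1 rose, beside 13.3% of all tested genes, so nothing is read from this count. That gene was Cish, a STAT5-driven inhibitor, with 2.12 ± 0.413 FPKM at 12 h against 1.08 ± 0.384 FPKM in controls (log2 change 0.59, adjusted p = 0.015). Of 6 phosphatases and PIAS inhibitors 0 passed at 1.5 h, 2 rose and 1 fell at 12 h, and 1 rose at 48 h, with medians of 0.14, 0.30 and 0.01. At 12 h 13.3% of all tested genes rose and 7.90% fell, and at 48 h 7.50% rose and 5.01% fell. Ptpn6 encodes SHP-1, a phosphatase of blood-derived cells and microglia. It had 4.55, 4.78 and 5.00 FPKM at 48 h against 0.866, 0.688 and 1.0 FPKM in controls (1.64, adjusted p = 2.4e-05) and also rose at 12 h (0.52, adjusted p = 0.019). The 7 microglia markers summed to 142 to 147 FPKM at 48 h, against 78.9 to 85.2 FPKM in controls, and 5 of the 7 rose. P2ry12 went the other way, below every control in all 48 h libraries, and did not pass (0.621 of the control mean, adjusted p = 0.081). Tmem119 overlapped the controls at 48 h (1.35-fold, adjusted p = 0.36). At 12 h the sum of the 7 was 47.0 to 49.7 FPKM and 4 of the 7 fell. The part of microglia in the Ptpn6 level was not tested. Ptpn1, a phosphatase that acts on JAKs, rose at 12 h (0.61, adjusted p = 0.0031), and Pias3, an inhibitor of STAT3, fell (-0.44, adjusted p = 0.046).

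Of 6 other STAT genes 5 were tested, with medians of -0.02, 0.07 and 0.38 over the times. None passed at 1.5 h, where 0.419% of all tested genes rose and 0.136% fell. At 12 h 1 of the 5 rose, beside 13.3% of all tested genes, so nothing is read from this count. Stat5a rose at 12 h (0.755 ± 0.245 FPKM against 0.244 ± 0.0959 FPKM in controls, log2 change 0.49, adjusted p = 0.04), although its end overlaps Stat3. Stat5a exceeded the filter in no control and was tested only because of its levels after PDT.

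Among 15 genes known as STAT3 targets, 0 passed at 1.5 h, 13 rose at 12 h and 12 rose at 48 h, and none fell at any of these times. Of all tested genes, 0.419%, 13.3% and 7.50% rose at the 3 times, and 0.136%, 7.90% and 5.01% fell. The list was chosen with earlier results of these data known, so its counts carry no support of their own. The medians of the 15 were 0.12, 2.25 and 1.27, against 0.02, 0.00 and -0.00 for all tested genes, and 3 of the 15 exceeded the filter in no control. Gfap and Vim, intermediate filaments of reactive astrocytes, and Timp1, an inhibitor of matrix proteases, had their highest levels at 48 h. Gfap had 632, 437 and 534 FPKM at 48 h, against 21.8, 12.7 and 26.4 FPKM in controls (log2 change 4.69, adjusted p = 3.3e-05), and 167, 141 and 179 FPKM at 12 h (2.99 over controls, adjusted p = 0.00044). Timp1 had 64.5, 42.9 and 55.3 FPKM at 48 h against 0.651, 0.383 and 0.837 FPKM in controls (5.08, adjusted p = 1.1e-06), and Vim had 183, 103 and 144 FPKM against 4.25, 3.38 and 5.03 FPKM (4.76, adjusted p = 1.2e-06). Mcl1, a survival factor, rose to 52.0 ± 3.75 FPKM at 12 h against 19.6 ± 1.70 FPKM in controls (1.36, adjusted p = 4.9e-05). Of 6 astrocyte markers other than Gfap, 3 rose and 0 fell at 48 h (Aqp4 2.93-fold, Sox9 1.91-fold and Aldh1l1 1.89-fold of the control mean), and 2 rose and 0 fell at 12 h (Sox9 2.48-fold and Aldh1l1 1.56-fold). Their summed level was 157 to 204 FPKM at 48 h and 251 to 295 FPKM at 12 h, against 234 to 249 FPKM in controls. Slc1a2 was the largest part of that sum, with 75.1 ± 12.0 FPKM at 48 h against 153 ± 11.3 FPKM in controls. It did not pass at 48 h (adjusted p = 0.077). Gja1 (0.656 of the control mean, adjusted p = 0.06) and Slc1a3 (0.756, adjusted p = 0.098) did not pass at 48 h either. In Slc1a2, Gja1 and Slc1a3 all 48 h libraries lay below every control. The part of these cells in the target levels was not tested. Bcl2l1 and Hif1a were the targets that did not pass at 12 h or 48 h, and Junb did not pass at 48 h.

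The targets moved in both directions between the later times. At 48 h against 12 h, 4 rose and 4 fell, beside 5.88% and 9.73% of all tested genes. The median change of the 15 was 0.02. Timp1 (log2 change 2.33, adjusted p = 1e-04), Vim (1.92, adjusted p = 0.00033), Gfap (1.70, adjusted p = 0.015) and Lcn2 (1.02, adjusted p = 0.048) rose. Junb (-2.02, adjusted p = 0.028), Pim1 (-1.26, adjusted p = 0.0085), Icam1 (-1.13, adjusted p = 0.004) and Myc (-0.60, adjusted p = 0.048) fell. Lcn2, Junb, Pim1, Icam1, Myc, Bcl2l1 and Hif1a were picked out after their values were seen.

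**Figure D4:**
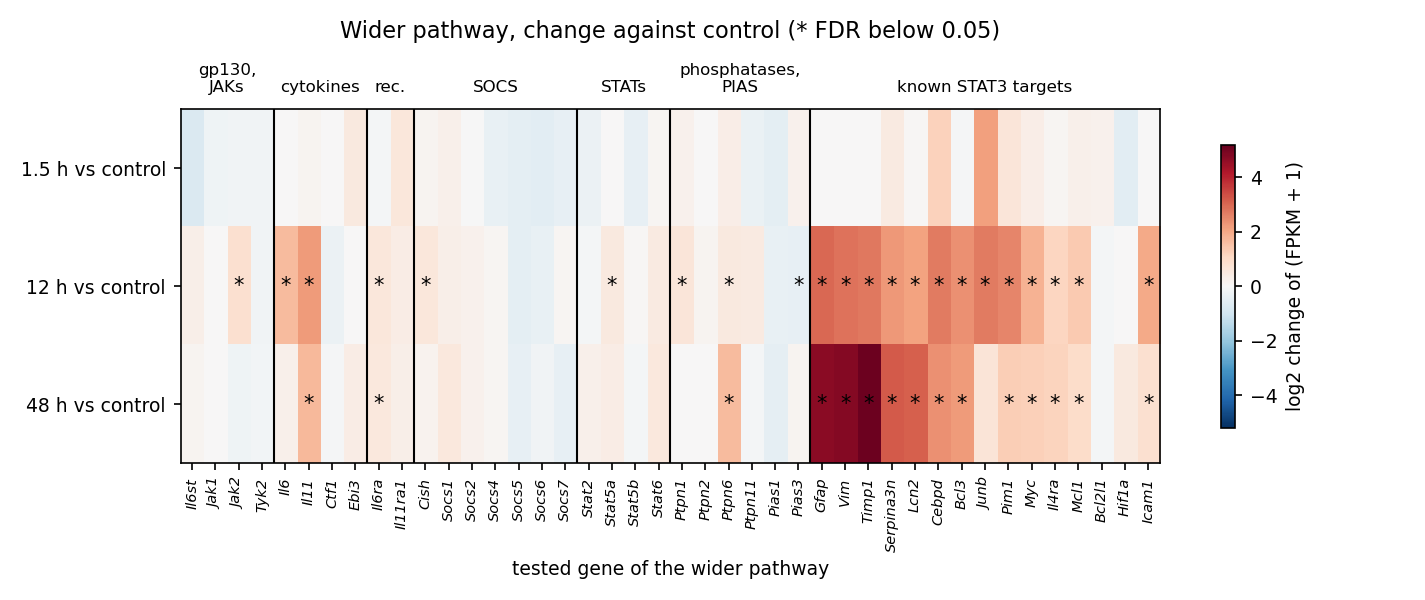
Log2 change of (FPKM + 1) against control (colour) at 1.5 h, 12 h and 48 h for the tested genes of the wider pathway that are reported here, grouped by role, with an asterisk where the FDR is under 0.05. The top line, 1.5 h, has no asterisk, and the STAT3 targets have 13 at 12 h and 12 at 48 h.

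The genes whose pattern over the 12 libraries was most like that of 3 members were found by Pearson's r of log2(FPKM + 1), among 14293 named genes. This is a description, since all points share the groups and their scaling. For Socs3 they were C5ar1 (r = 0.989), Emp1 (0.987), Tpm4 (0.985), Plek (0.981) and Sbno2 (0.981). For Osmr they were Emp1 (0.989), Sbno2 (0.989), Shc4 (0.981), Fgf2 (0.979) and Csf1 (0.977), so Emp1 and Sbno2 stood on both lists. Emp1, a membrane protein of epithelia, averaged 0.138, 0.129, 10.5 and 4.88 FPKM in the control, 1.5 h, 12 h and 48 h groups, and Sbno2 averaged 2.33, 2.07, 15.1 and 9.32 FPKM. For Lif they were Flnc (0.993), Micall2 (0.988), Tgm2 (0.986), H19 (0.985) and Anxa3 (0.984). Flnc, an actin crosslinker, averaged 0.138, 0.121, 3.56 and 4.14 FPKM in the same order of groups, and the noncoding RNA H19 averaged 0.0157, 0.0722, 8.19 and 8.36 FPKM.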

How the data were processed

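RNA of mouse brain was measured in 12 libraries in 4 groups of 3. The deposited table gives 1 FPKM value per gene and library, made by the authors, with gene lengths and coordinates per the file headers. Bowtie 0.12.2 and the build mm8 are named in the submitters' processing notes; how reads were counted, with or without strand, and on which gene models is not given in the sources used here. Of 54409 gene identifiers shared with GENCODE mouse release 21, 98.33% had equal start and end, so positions are GRCm38. FPKM times length was a whole multiple of a step for 100% of values within 0.05 reads, which gave recovered reads. The authors' scaling equalled a median-of-ratios factor over 18170 genes, so no further scaling was applied.

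The filter kept genes with over 0.5 FPKM in 3 or more of the 12 libraries (17664). Their log2(FPKM + 1) values went into limma 3.58.1 (R 4.3.3, trended variance, 1 fit of 4 groups, 8 residual and 3.09 prior degrees of freedom), with Benjamini-Hochberg adjustment over all tested genes in each of 6 contrasts. The script was tested on simulated data. Of 12 columns, 11 carry a number from the titles. Deviations of 11 same-numbered pairs correlated with a median of -0.004 (-0.264 to 0.156), so numbers were not used as pairs. Libraries of a group correlated at 0.919 to 0.987, and none was a copy.

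The 9 genes, the pathway and marker lists and the tests were chosen with earlier results of these data known. Of each list, up to 4 genes with the smallest adjusted p against control were named, and Il6st, Jak1, Jak2, Il6 and Il6ra always. Likeness was taken for Socs3, Lif and Osmr, without predicted genes. The 21 alternatives were another pseudocount (0.1), filter (none, or 1 FPKM), quantile normalization, a length correction, limma's voom on recovered reads, a replicate block, the 2 groups alone and leaving out libraries. No count model was used, since the deposited unit is FPKM. Floors and read numbers cover counting error only. Promoter bases are RefSeq's. Some genes of the lists are not reported here, although the counts and medians of their lists include them.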

Additional observations from a re-analysis of the deposited data

Results flagged for a closer look

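The changes against control differed between times for several genes, tested as the difference between the times themselves in the limma fit (log2 scale, FDR under 0.05). Since the control cancels, these are the differences between times given in the report. The 12 h response exceeded the 1.5 h response for Socs3 (3.45), Osmr (2.01), Stat3 (1.68), Clcf1 (1.56), Lif (1.34) and Osm (1.09). The 48 h response exceeded the 1.5 h response for Socs3 (2.56), Clcf1 (2.45), Stat3 (1.69), Osmr (1.39) and Lif (1.32), and was lower for Cntfr (-0.67). The 48 h response was lower than the 12 h response for Socs3 (-0.89), Osm (-0.86), Cntfr (-0.85) and Osmr (-0.63), and higher for Clcf1 (0.89). Groups of 3 libraries are too small to single out one library by its gap from the others.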

How the results depend on the processing

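Of 21 alternatives, each kept the number of the 8 genes that passed within 1.5 times of 6 at 12 h and 48 h against control and against 1.5 h. The calls of Socs3, Stat3, Lif, Osmr and Clcf1 at 12 h and 48 h against control, and of Osm at 12 h, held in all 21. At 1.5 h against control the count was 0, and 0 to 1 when a library was left out. The weakest comparison was 48 h against 12 h, with 5 calls: 2 with a pseudocount of 0.1, 3 without the filter, 3 in the 2 groups alone, 0 with the replicate block and 3 to 5 when a library was left out. The block also ended the 48 h call of Cntfr (-0.49) and took all genes called from 3737 to 1321 at 12 h and from 2209 to 724 at 48 h; the numbers do not pair the libraries.

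Values near 0 changed sign. At 1.5 h, Cntfr was -0.12 with quantile normalization, Stat3 was 0.08 with the length correction and 0.27 without replicates 1 and 3, and Lifr was 0.05 without these. At 48 h against 12 h, Lif was 0.00 with quantile normalization and 0.12 with the block, and Lifr was -0.11 with the block. Leaving out 1 library gave -0.22 to 0.04 for Stat3 at 1.5 h, and at 48 h against 12 h -0.19 to 0.09 for Lif, -0.11 to 0.12 for Stat3 and -0.12 to 0.12 for Lifr. The cause was not tested. With voom on recovered reads, changes at 12 h were 4.06 for Lif, 5.09 for Osm, 3.53 for Osmr and 3.61 for Clcf1, where the pseudocount of 1 gave 1.38, 1.43, 1.82 and 1.66, and 49, 3760 and 2397 genes were called at 1.5 h, 12 h and 48 h. All genes called at 1.5 h ran from 4 to 8071, and 8071 came without replicate 2. With 1 to 8 control reads, depth limits Osm, Lif and Cntf.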
